A study of Mus musculus with 4 samples.

Results

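Promoters of protein-coding genes that were called accessible in wild-type (WT) hematopoietic stem cells (HSCs) and not in Med23-deficient (KO) HSCs are described here. A promoter peak was included when it lay on 1 of the 19 autosomes in the WT peak list, shared no base with any KO peak, and had its summit, the position of highest signal, within 1000 bp of an annotated start site of a protein-coding gene. The rule selected 1022 of 13283 WT coding promoter peaks (7.69%), out of 36849 autosomal WT peaks in all, and these 1022 peaks belonged to 973 genes. They were chosen by the same WT against KO contrast that a reader would want tested, so their absence from the KO list is a description and no test of it is given. For reference, 21.7% of all autosomal WT peaks shared no base with a KO peak, and 975 of 13275 KO coding promoter peaks (7.34%) shared no base with a WT peak, so about as many promoters were found in the KO list only.

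Accessibility was measured by ATAC-seq on sorted bone marrow cells of adult C57BL/6 mice, 5000 cells per sample, gated as Lin- Sca1+ cKit+ cells with CD150 and without CD48, where the labels add the absence of CD34 and the study's methods for ATAC-seq do not. The WT mice carried floxed Med23 alleles (written Med23floxp/flowp in the labels) and no cre, and the KO mice carried the same alleles with Mx1-cre. The Mx1 promoter responds to interferon, and by the study's methods deletion was induced with poly(I:C), so that it can occur in other interferon-responsive cells besides HSCs. The sources used here do not say whether the WT mice of this experiment were injected too. The labels name 2 samples per genotype but only 1 peak list for each, so no value below could be set against a spread between animals, and intervals cover counting error over peaks or genes only.

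A promoter is the stretch around a transcription start site where general factors, Mediator and RNA polymerase II assemble. Mediator, of which Med23 is a subunit, connects transcription factors bound at enhancers and promoters to the polymerase. Many mouse genes have several start sites, often far apart, so that closing 1 promoter need not silence the gene. Promoters rich in the dinucleotide CpG are accessible in most cell types, whereas CpG-poor promoters tend to be used in particular tissues. ATAC-seq records where a transposase can insert into DNA, and a called peak marks open chromatin without saying how much is transcribed.

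The sort was checked against marker genes fixed for this report. Among stem cell markers, Kit, Cd34, Hlf, Mecom, Meis1, Fgd5, Tek, Gata2 and Tal1 had a promoter peak in both lists, and Slamf1, Procr and Ly6a had none in either. None of 4 T cell markers had one. Of 6 granulocyte and macrophage markers, 2 had a WT promoter peak (Ltf and S100a8), both of them WT-only, and 0 had a KO promoter peak, while Ngp, Camp, Csf1r and Ly6g had none in either list. Of 4 B cell markers, Pax5 had a peak in both lists and Cd22 in WT only. Of 4 stroma and endothelium markers, 3 were open in WT and 2 in KO. The Med23 promoter itself was open in both lists, where the summit stood 13.5-fold over its local background in WT and 19.1-fold in KO. Since this peak does not show the deleted exon, it does not check the genotypes. Fold enrichments ran higher in the KO list as a whole, with a median of 7.41 over its autosomal peaks against 6.38 in WT. The strongest promoter peak of each coding gene had a median of 9.86 in KO and 8.3 in WT. Folds of the 2 lists that are set side by side, here and below, carry this difference. In bulk samples such as these, fewer cells of a type and less open chromatin per cell cannot be told apart.

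The reference sequence (GRCm38.p6, the mm10 build of the lists) at the summits of 8 strong WT-only promoters is shown to give the letters behind the base composition and motif counts described further on. Each stretch is taken from the 200 bp around the summit and is written 5′ to 3′ on the strand of the gene, cut where it would run more than 30 bases into an annotated untranslated region. Capitals mark matches, on either strand, to 12 short motifs of hematopoietic and general promoter factors. The first 4 belong to genes with no promoter peak in the KO list, on chr7:6410134-6410306 (plus strand), chr6:115037847-115037985 (minus), chr17:35424693-35424892 (plus) and chr17:46153524-46153679 (minus).
Gm20715: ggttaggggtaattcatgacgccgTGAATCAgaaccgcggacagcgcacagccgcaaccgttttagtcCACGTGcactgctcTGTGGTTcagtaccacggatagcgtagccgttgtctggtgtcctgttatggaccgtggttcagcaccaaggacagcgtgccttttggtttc
Tamm41: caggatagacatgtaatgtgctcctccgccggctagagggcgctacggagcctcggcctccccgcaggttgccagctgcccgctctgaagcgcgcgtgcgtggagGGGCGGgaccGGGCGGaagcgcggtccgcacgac
H2-Q6: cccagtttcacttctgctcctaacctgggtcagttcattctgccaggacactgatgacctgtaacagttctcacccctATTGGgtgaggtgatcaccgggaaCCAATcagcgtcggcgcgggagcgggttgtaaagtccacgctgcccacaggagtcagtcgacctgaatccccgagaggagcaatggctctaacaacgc
Mad2l1bp: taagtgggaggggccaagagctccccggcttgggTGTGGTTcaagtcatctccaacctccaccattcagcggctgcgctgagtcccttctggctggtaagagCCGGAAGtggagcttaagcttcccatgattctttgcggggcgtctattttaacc
The capitals are an AP1, an E-box and a RUNX match in Gm20715, 2 SP1 matches (GGGCGG) in Tamm41, 2 CCAAT matches in H2-Q6, and a RUNX and an ETS match (CCGGAAG) in Mad2l1bp. The other 4 belong to genes with another promoter open in KO, on chr1:183147445-183147644 (minus), chr17:17448746-17448849 (plus), chr6:108417615-108417814 (plus) and chr8:64597111-64597310 (minus).
Disp1: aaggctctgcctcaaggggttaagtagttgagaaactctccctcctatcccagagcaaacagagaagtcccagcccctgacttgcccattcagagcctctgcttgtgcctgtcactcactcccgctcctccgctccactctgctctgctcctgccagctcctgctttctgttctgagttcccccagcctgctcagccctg
Lix1: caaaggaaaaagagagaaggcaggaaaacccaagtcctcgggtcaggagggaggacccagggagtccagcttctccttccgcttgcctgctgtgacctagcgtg
Itpr1: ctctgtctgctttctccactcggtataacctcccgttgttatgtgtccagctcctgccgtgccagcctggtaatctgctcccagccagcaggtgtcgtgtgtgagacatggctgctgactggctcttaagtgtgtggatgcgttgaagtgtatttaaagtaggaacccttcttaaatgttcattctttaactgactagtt
Cpe: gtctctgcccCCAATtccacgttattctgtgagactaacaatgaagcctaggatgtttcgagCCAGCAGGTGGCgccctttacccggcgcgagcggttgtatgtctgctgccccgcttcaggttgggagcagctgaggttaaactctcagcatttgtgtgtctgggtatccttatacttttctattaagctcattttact
In Disp1, Lix1 and Itpr1 0 of the 12 motifs matched, and Cpe held a CCAAT match and a match to the CTCF consensus. In the first 4, the dinucleotide CG occurred 13 times in 173 bases at Gm20715, 18 times in 139 bases at Tamm41, 10 times in 200 bases at H2-Q6 and 6 times in 156 bases at Mad2l1bp. In the other 4 it occurred 2 times in 200 bases at Disp1, 3 times in 104 bases at Lix1, 5 times in 200 bases at Itpr1 and 8 times in 200 bases at Cpe. The sets overlapped in the ratio of observed to expected CG, which was 0.484 at Mad2l1bp and 0.64 at Cpe. The Tcte3 promoter, second by enrichment, is not printed because nearly all of its window is annotated as untranslated region.

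The WT-only promoters were weak peaks. The median fold enrichment of the summit over its local background was 4.21 (quartiles 3.65 and 5.16, range 2.04 to 11), against 8.06 (6.18 and 10.0) for the 12261 shared coding promoter peaks. The pileup, the number of fragments stacked at the summit, had a median of 10 (8 to 13) in WT-only promoters and 31 (19 to 52) in shared promoters. For scale, the lowest pileup in the KO list was 6 and its lowest 5% of peaks reached 8. The median −log10 q was 3.96 against 18.8, and 298 of the 1022 (29.2%) had a −log10 q under 3. WT-only promoter peaks were also narrower, with a median of 376 bp against 931 bp. KO-only promoters were weak and narrow as well. Their medians in the KO list were 4.59 for fold enrichment, 11 for pileup, 4.6 for −log10 q and 400 bp for width. The share of WT coding promoter peaks without a KO overlap was 39.5% (95% Wilson interval 36.9 to 42.2) in the first decile by fold enrichment. It was 19.7% in decile 2, 10.4% in decile 3, 3.31% in decile 4 and 2.71% in decile 5. Deciles 6 to 10 lay between 0.527% and 0.0%, and the count of 0 in the 1329 peaks of decile 10 allows up to 0.288% by the Wilson interval. How signal in KO stood at these positions was not measured by the lists, which hold called peaks only.

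**Figure D1:**
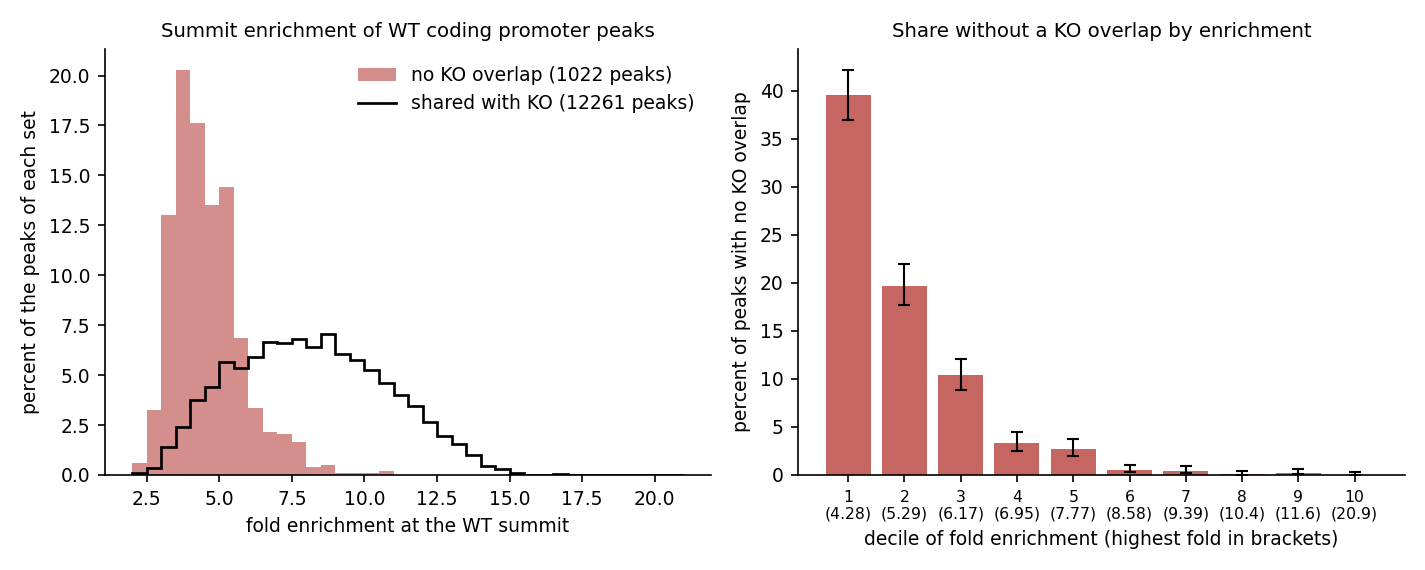
Left, the percent of WT coding promoter peaks of each set in bins of fold enrichment, for the 1022 without (red) and the 12261 with a KO overlap (line); right, the percent without a KO overlap in each decile of coding promoter peaks by fold enrichment, with 95% Wilson intervals. The red set piles up around its median of 4.21, and the share without a KO overlap falls from 39.5% in decile 1 to 0.0% in decile 10.

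A small number of WT-only promoters was well enriched: 85 of 1022 (8.32%) reached the median fold enrichment of all WT peaks, and 65 (6.36%) had a pileup of 20 or more. The strongest, a peak at Gm20715, a predicted gene of unknown role, stood 11-fold over background with 30 stacked fragments (95% Poisson interval 20.2 to 42.8) and a summit 44 bp upstream of the start. Its nearest KO peak lay 11168 bp away. In what follows the enrichment is given first and the pileup second. The summit at Tcte3, a dynein light chain gene named for its expression in testis, had 10.9 and 23, and Ermard and Gm3448 also start within 1000 bp of it. No KO peak lay within 10 kb of the gene. Tamm41, an enzyme of mitochondrial cardiolipin synthesis, had 9.84 and 23, with the nearest KO peak 68012 bp away.

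Mad2l1bp, which helps to silence the spindle checkpoint, had 8.9 and 23. Rps19bp1, a ribosomal protein binding partner, had 8.63 and 24, and Depdc5, a subunit of the GATOR1 complex that restrains mTORC1, had 8.6 and 19. For Mad2l1bp the nearest peak on each side was present in both lists. The one 7.36 kb upstream had a pileup of 71 in WT and 54 in KO, and the one 9.37 kb downstream had 22 in WT and 17 in KO. At Depdc5 the neighbour 9.27 kb upstream had 17 in WT and 14 in KO. In both cases these neighbours were in the KO list and the gene's own promoter was not. Farther from Mad2l1bp, a WT peak 19.7 kb upstream with a pileup of 7 had no KO counterpart. A KO peak 14.6 kb downstream with a pileup of 9 had no WT counterpart.

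H2-Q6, a class I MHC gene, had 9.24 and 28, and is uncertain because near-identical class I genes can share its reads. Mertk, a receptor kinase for the clearance of dying cells, had 8.9 and 24 with a summit 617 bp upstream of the start. Rapgefl1 had 8.62 and 21, and Npy4r, a receptor of pancreatic polypeptide, had 8.1 and 22. Iqsec3 had 7.86 and 23, and Asphd1 had 7.83 and 20. None of these 6 genes had a promoter peak in the KO list. Zfp609, a zinc finger gene, had 8.02 and 18, and its KO peak, with a pileup of 11 at the same start site, lay 131 bp away. The first start-site group of Zfp609 was thus open in both lists.

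Alternative start sites were grouped by chaining the starts of 1 gene that lay within 500 bp of each other, and a group was called open in a list when a summit lay within 1000 bp of 1 of its starts. Of the 973 genes, 554 (56.9%, 53.8 to 60) had no KO promoter peak at any group. Another group was open in KO for 340 genes (34.9%, 32 to 38). That share was 25.4% when only WT-only peaks at starts of coding transcripts were counted. It was 13.4% for WT-only peaks at the outermost start of each gene. In both settings a KO peak at any start of the gene still counted. In the remaining 79 of the 973 genes (8.12%) only the group of the WT-only peak itself was open. It was open through a KO peak that did not touch the WT peak. Counted by peaks, 132 of the 1022 (12.9%) had their own group open in KO in this way. Of the 554 genes without a KO promoter peak, 200 also had no KO peak in the gene body or within 10 kb of it, 20.6% of the 973. For comparison, of the 924 genes with KO-only promoters, 393 (42.5%) had another group open in WT and 461 (49.9%) had no WT promoter peak. Among all 20807 autosomal coding genes, 12856 had a WT promoter peak and 12773 a KO promoter peak, and 646 had one in WT only, 563 in KO only.

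The class of a gene varied with its number of start-site groups. Of 259 genes with 1 group, 227 had no KO promoter peak. Of 213 genes with 2 groups, 56 (26.3%) had the other group open in KO, and of 501 genes with 3 or more, 284 (56.7%) had another open. Of all 714 genes with at least 2 groups, 340 (47.6%, 44.0 to 51.3) had another open in KO and 327 (45.8%) had none. Genes with more groups have more places where a KO peak can lie.

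**Figure D2:**
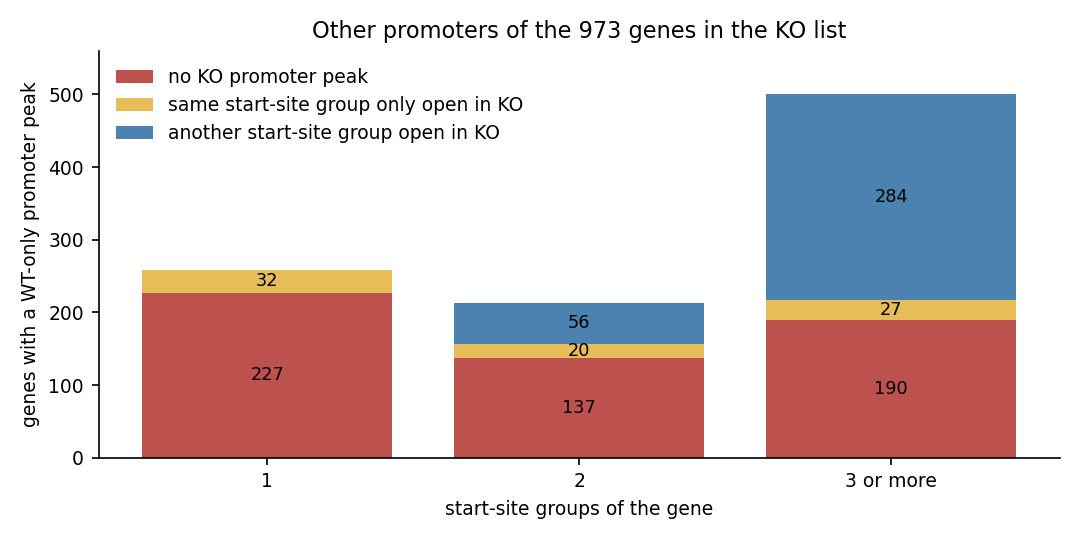
Number of genes with a WT-only promoter peak, by the number of start-site groups of the gene, split by what the KO list holds at the gene's start sites. Of 259 genes with 1 group 227 had no KO promoter peak, and of 501 genes with 3 or more groups 284 had another group open in KO.

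Where a gene had an alternative, it lay more often upstream than downstream of the WT-only promoter. In 306 peaks the own group was closed in KO and another was open. The open group lay upstream only in 196 (64.1%, 58.5 to 69.2), downstream only in 77 (25.2%) and on both sides in 33. Of shared promoter peaks 78.3% were at the gene's first group, which lies upstream of every later group. The part of this placement in the upstream excess was not tested, and the excess is given as a description without a baseline. The nearest open group was at a median of 18.6 kb (quartiles 5.68 and 52.1 kb). At least 1 group open in KO was also open in WT in 282 of the 306 (92.2%), so in most of these cases the WT list held both promoters and the KO list held the other one alone. The median fold enrichment at the other group with the strongest KO peak was 8.17 in KO and, for the 274 with a WT peak there, 7.28 in WT, against 4.34 for the WT-only peak, and the WT-only peak was the weaker of the pair in WT in 238 of 274 (86.9%, 82.3 to 90.4). Since the WT-only peaks were chosen for having no KO peak and the other group for its strong KO peak, this order is largely set by the choice and is given as a description. Counted over all 1022, 406 (39.7%) were at a group other than the gene's first, against 21.7% of shared and 46.1% of KO-only promoter peaks. In decile 1 by enrichment the shares were closer, 41.3% of WT-only and 38.1% of shared. They were farther apart in the next deciles, with 39.7% and 31.9% in decile 2 and 39.1% and 32.5% in decile 3. Deciles 4 and 5, with 44 and 36 WT-only peaks, had 29.5% and 24.7%, and 38.9% and 22.8%.

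Disp1, needed for the release of Hedgehog ligands, was the strongest of this kind. Its WT-only peak, with 10.4 and 30, was 13 bp upstream of the second of 2 groups, the start of a transcript with a retained intron. The first group, 74.0 kb upstream, was open in both lists, with a fold enrichment of 7.29 in WT and 7.77 in KO. In Disp1 and in Lix1, the next gene by enrichment, the WT-only peak was the higher of the pair in WT. Lix1 had 8.46 and 20 at its second group, and its first, 46.1 kb away, had 4.17 in WT and 5.18 in KO, with a pileup of 10 in each. Itpr1, the inositol trisphosphate receptor of the endoplasmic reticulum, had a WT-only peak of 8.2 and 17 at group 7 of 11. Its first group was 205 kb upstream and strongly open, with a pileup of 133 in WT and 143 in KO.

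Further genes had another group that was open in both lists. Cpe, a carboxypeptidase that trims prohormones, had 7.92 and 20 at the last of 4 groups, while its first had a pileup of 58 in WT and 59 in KO. Mef2b, a transcription factor of germinal centre B cells, had 7.7 and 27 at its second group and a pileup of 35 in WT and 32 in KO at its first. Fbxl17, a ubiquitin ligase subunit, had 7.6 and 21, with 84 in WT and 91 in KO at its first group, 7.26 kb upstream. Arpp21 had 7.61 and 23 at group 6 of 8, with 19 in WT and 28 in KO at group 2. Cyp4f13, Faxc and Tctex1d1 each had a WT-only peak of 7.75 and 16, and the first group of each was open in both lists. At the first groups of these genes the pileup was 33 in WT and 31 in KO for Cyp4f13, 25 and 27 for Faxc, and 14 and 16 for Tctex1d1. At all 7 genes of this paragraph the other promoter was in the KO list with a pileup no more than 3 below the WT one. By fold enrichment in WT, the WT-only peak was also the higher of the pair at Faxc, Tctex1d1, Arpp21 and Fbxl17. The other group of these had 6.73, 5.78, 5.97 and 7.3. At Cpe, Mef2b and Cyp4f13 the other group was the higher, with 13.7, 7.89 and 9.28.

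**Figure D3:**
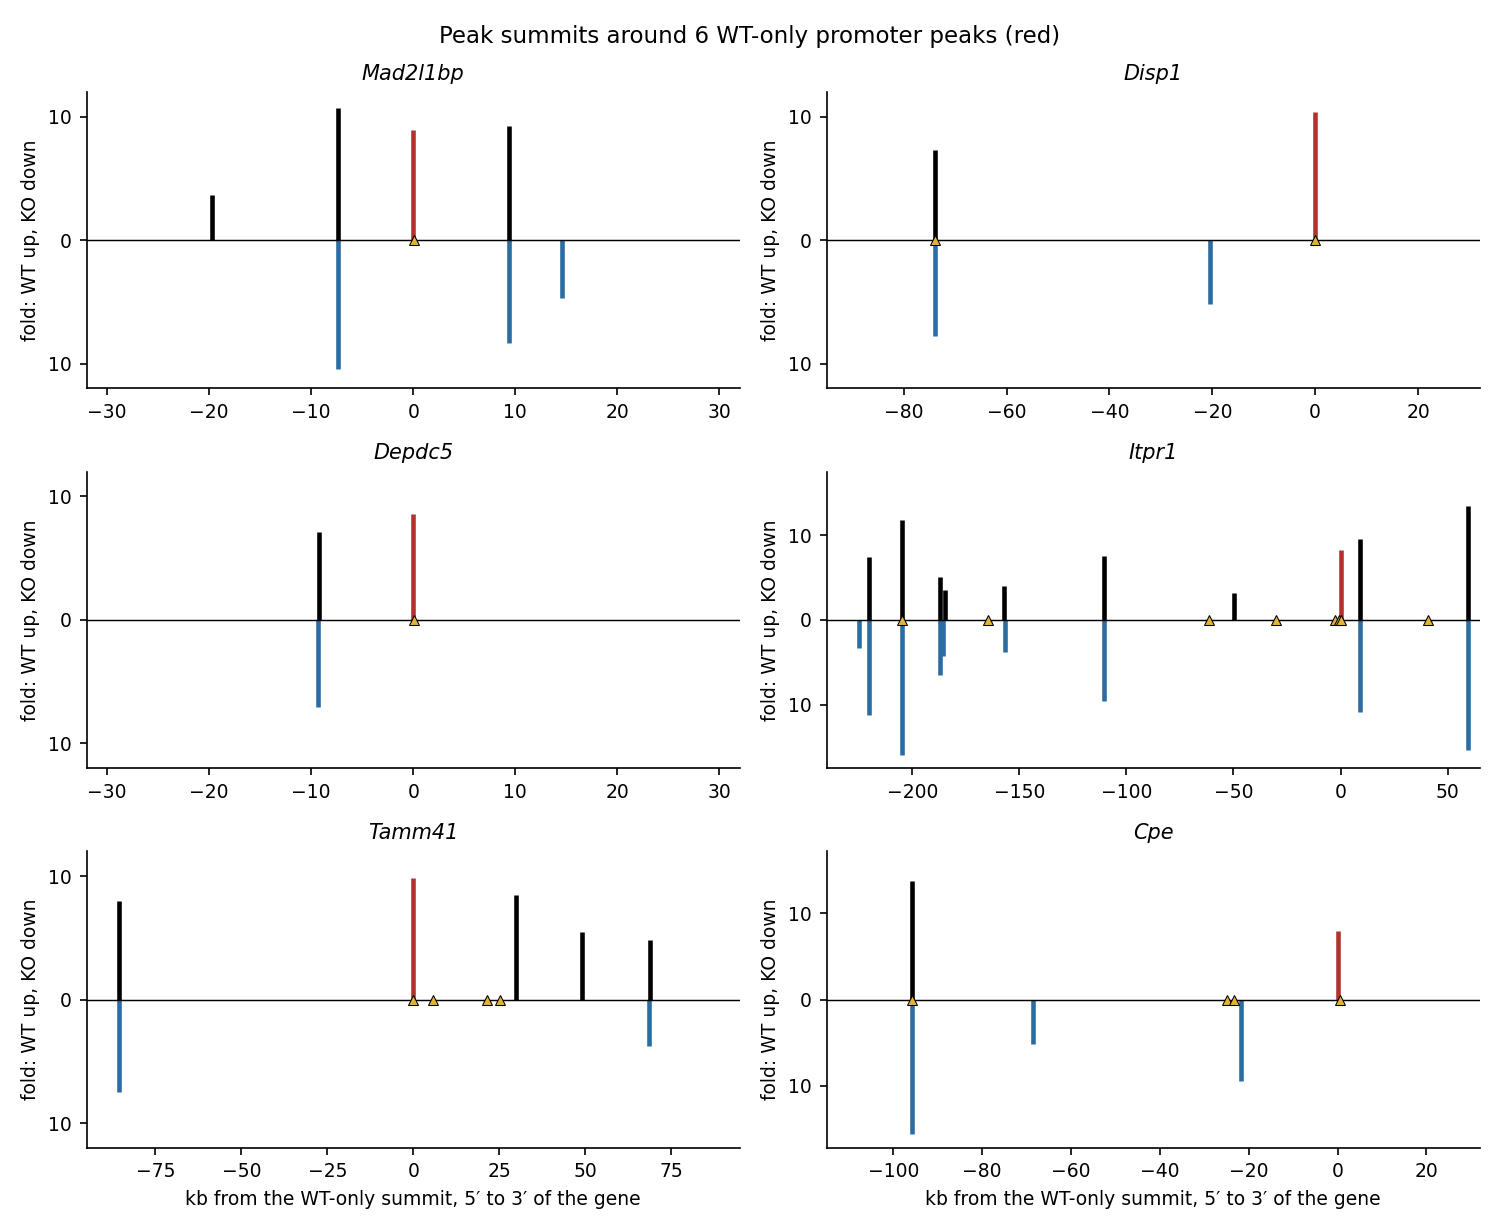
Peak summits around 6 WT-only promoter peaks (red), as kb from that summit in the direction of the gene; bars upward are fold enrichment in WT, bars downward in KO (blue), and triangles mark the gene's start-site groups. At Mad2l1bp, Depdc5 and Tamm41 no KO bar stands at a triangle, whereas at Disp1, Itpr1 and Cpe the first group has a bar in both lists.

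In 44 genes more than 1 WT-only promoter peak was found, and in 28 of them the peaks were at different groups. Ablim1, an actin-binding LIM protein, had 3, at groups 1, 5 and 8 of 11, with fold enrichments of 5.92, 3.99 and 4.3, and group 9 was open in KO with 6.09. Auts2 had 4 weak peaks at 3 of 13 groups, the highest at 4.56. Slc7a7, an amino acid transporter, had 3 peaks of 5.92, 5.28 and 3.05 and no KO promoter peak. Hsd11b1, which regenerates active glucocorticoid, had enrichments of 6.3 and 5.01 at groups 3 and 1 of 6, and Rapgefl1 had 8.62 and 3.19, again without a KO promoter peak. Of the 973 genes, 103 (10.6%) had both a WT-only and a KO-only promoter peak.

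The values at the limits of the rule show how close some calls were. The WT-only promoters nearest to a KO peak were at Bmp8b, Zfp362 and Slc4a2, with gaps of 7, 11 and 11 bp, whereas the shared promoters with the smallest overlap, at Brd2, Dmrt3 and Cbx7, shared 2, 4 and 6 bp. In all, 109 of the 1022 (10.7%) had a KO peak within 500 bp, and the median gap was 8560 bp. By distance, the last summits inside the limit were 999 bp from the start of Mpzl2, 997 bp from Txndc2 and 995 bp from Mesp1. The first outside were 1002 bp from Upk1a, 1014 bp from Numbl and 1020 bp from Dnm1.

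WT-only promoters were less often centred on a start site than shared ones. Their summit was within 100 bp of a start in 38.1% (35.1 to 41.1), against 62.5% of shared promoters, and over 500 bp away in 23.3% against 7.16%. Among weak shared promoters, those with a fold enrichment up to the upper quartile of 5.16, the shares were 44.5% and 16.9%, between the other sets. KO-only promoters were like the WT-only ones, with 36.9% within 100 bp and 26.8% over 500 bp away. The summit was in an intron in 381 (37.3%), in an untranslated or non-coding exon in 287 (28.1%), upstream of the gene or between genes in 226 (22.1%) and in a coding exon in 128 (12.5%). For shared promoters the intron took 21.3% and the upstream side 36.2%. The nearest start belonged to a transcript annotated as coding in 67.2% of WT-only and 76.7% of shared promoters, and to a retained-intron transcript in 15.2% and 10.9%. For KO-only promoters these shares were 65.3% and 15.0%.

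In sequence the WT-only promoters lay between shared promoters and other WT-only peaks. The 200 bp at the summit had a median GC content of 59.0%, against 65% for shared promoters, 63.0% for weak shared promoters, 58.0% for KO-only promoters and 48.0% for WT-only peaks away from coding starts. The CpG observed to expected ratio, which is 1 where CG is as frequent as the base composition gives, had a median of 0.567 in WT-only promoters, 0.803 in shared, 0.693 in weak shared, 0.491 in KO-only promoters and 0.216 in the other WT-only peaks. A ratio of at least 0.6 was found in 472 of 1022 (46.2%, 43.1 to 49.2) and in 74.1% of shared promoters. Genes without a KO promoter peak and genes with an alternative had different medians over all their peaks, although the 8 printed sequences overlapped. Peaks of the former had a median GC content of 62.0% and a CpG ratio of 0.664, and peaks of the latter 54.5% and 0.4, although their median fold enrichments were 4.55 and 4.1. This split was read from the same lists that define the classes and is given as a description.

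**Figure D4:**
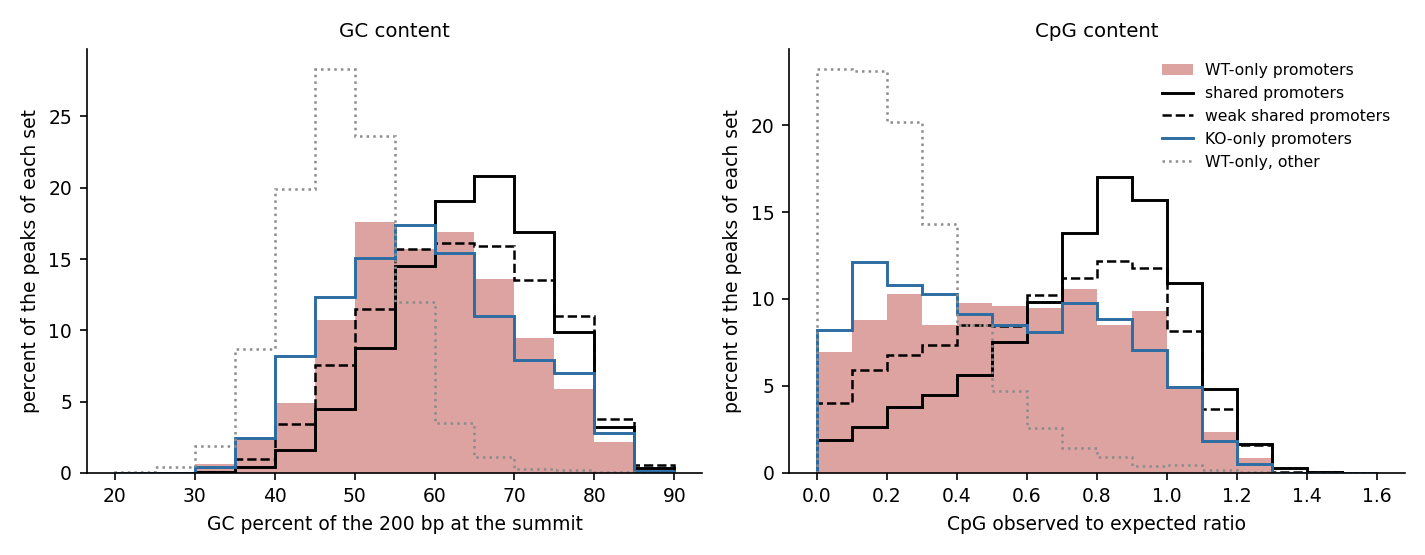
Percent of peaks in bins of GC content (left) and of the CpG observed to expected ratio (right) of the 200 bp at the summit, for WT-only promoters (red), shared promoters (solid line), weak shared promoters (dashed), KO-only promoters (blue) and WT-only peaks away from coding starts (dotted). The WT-only promoters spread over CpG ratios from 0 to above 1, with a median of 0.567, and the shared promoters gather near 0.803.

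Of the 12 motifs, SP1, ETS, CRE, CCAAT, E-box and CEBP were less frequent in WT-only than in shared promoters, and TATA, GATA, RUNX, PU1, AP1 and CTCF were more frequent. For PU1 and CEBP the shared value lay within the counting interval of the WT-only one, and for RUNX at its lower limit of 2.97%. The SP1 motif GGGCGG was in 33.4% of WT-only promoters (30.5 to 36.3), 57.3% of shared, 44.3% of weak shared, 32.9% of KO-only promoters and 40.8% of 20807 windows of the same length, 1 at the start of each coding gene. The ETS motif CCGGAAG was in 4.5%, 13.0%, 5.42%, 5.44% and 9.76% in the same order, and the CRE motif TGACGTCA in 0.587%, 2.57%, 1.33%, 1.13% and 2.01%. CCAAT was in 20.1%, 28.9%, 18.4%, 19.8% and 28.0%. The motifs of blood cell factors were each in under 5% of WT-only promoters. The GATA factor motif, with letters AGATAA, was in 4.99% of WT-only promoters, 2.75% of shared promoters and 5.19% of gene starts. The RUNX motif TGTGGTT was in 4.01%, 2.97% and 3.15%, the AP1 motif TGANTCA in 4.4%, 3.16% and 4.09%, and the PU1 motif GAGGAAGT in 3.03%, 2.63% and 2.34%, in that order. In weak shared promoters GATA was in 4.21%, RUNX in 3.69%, AP1 in 3.98% and PU1 in 2.94%, near the WT-only shares. In KO-only promoters these motifs had higher shares than in WT-only ones, with 5.85%, 5.03%, 5.54% and 4.62%. Only that of PU1 lay outside the WT-only interval, which was 2.15 to 4.27. The CTCF consensus, added after the sequences were read, was in 2.35% of WT-only promoters (1.58 to 3.47), 0.913% of shared, 1.1% of weak shared promoters, 2.26% of KO-only promoters and 0.399% of gene starts. The E-box CACGTG was in 5.19% of WT-only promoters, 7.02% of shared promoters and 5.71% of gene starts. The TATA box, searched as TATAAA, was in 5.19% of WT-only, 2.71% of shared and 3.58% of weak shared promoters and in 8.14% of gene starts. The CEBP motif TTGCGCAA was in 0 of the 1022, which allows up to 0.374%, in 0.22% of shared promoters and in 0.135% of gene starts. Both strands were searched, the motifs can overlap, and a match says only that these letters are present.

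Among 24 gene families, the homeobox genes, which pattern the embryo, had the highest share of WT-only promoters. Of 67 homeobox genes with a WT promoter peak, 25 (37.3%) had a WT-only one, against 7.57% of all coding genes with a WT promoter peak. Of 60 homeobox genes with a KO promoter peak, 25 (41.7%) had a KO-only one, so homeobox promoters found in 1 list only were frequent on both sides. The WT promoters of homeobox genes were weak as a whole, with a median of 4.45 for the strongest peak of each gene against 8.3 for all genes. The highest were Alx4 at 6.55 with a pileup of 16 and Gsx1 at 5.11 with 13, both without a KO promoter peak. Hoxb3 had 2 WT-only peaks at group 3 of 4, at 4.15 and 3.44, and Hoxa9, a stem cell regulator, had 2.89 with a pileup of 16 near its second group. Cadherins and protocadherins had 11 of 37 (29.7%), of which 10 had no KO promoter peak. These cell adhesion genes had 9 of 33 (27.3%) on the KO side. Ion channel subunits had 20 of 117 (17.1%), with 23 of 121 (19.0%) on the KO side, led by Cacna1a, a calcium channel, and Scn4b, a sodium channel subunit, both at 6.38. The median of the strongest WT peaks was also below 8.3 here, at 6.02 for the cadherin family and 6.08 for the ion channels.

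Neuronal genes had a WT-only promoter in 9 of 32 (28.1%) and a KO-only one in 8 of 32 (25.0%). Their strongest WT peaks had a median fold enrichment of 6.33, against 8.3 for all coding genes. The neurofilament genes Nefl and Nefm reached 5.47 and 5.01, and Neurog2, a neurogenic transcription factor, had 3.65 with a pileup of 19. These genes had no KO promoter peak, nor had Cacna1e at 3.65, but at Neurog2 a KO peak lay 256 bp from the WT-only peak with its summit beyond the limit of 1000 bp from the start. Another group was open in KO for Cacna1a, for Dlg2, a synaptic scaffold, at 4.17, for Cntnap2, an axonal adhesion protein, at 3.99, and for Syt2, a synaptotagmin, at 4.56 and 4.1. Cacna1b, at 3.35, had its own group open in KO, as had Cntnap2, through KO peaks 487 bp and 531 bp away.

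In several families, among them ribosomal and respiratory chain genes, few genes had a WT-only promoter. Of 72 cytosolic ribosomal protein genes with a WT promoter peak, 0 had a WT-only one, and 2 of 72 (2.78%) had a KO-only one. Of 167 genes of the mitochondrial ribosome and respiratory chain, 4 did (2.4%), and all 4 were without a KO promoter peak: Ndufb8 at 6.57, Mrpl28 at 6.47, Mrpl22 at 5.74 and Mrps10 at 4.56. C2H2 zinc finger genes had 16 of 381 (4.2%) and ubiquitin ligases 9 of 198 (4.55%). Cell cycle and DNA replication genes had 1 of 44 (2.27%), and this was Cdk1, the mitotic kinase, at its second group. Its peak had a fold enrichment of 3.02 and lay 37 bp from a KO peak, and its first group was open in both lists with a pileup of 55 in WT and 53 in KO. In these families the shares on the KO side were within a few percentage points of the WT ones, except for the cell cycle genes with 4 of 47 (8.51%). The strongest WT peak of each gene had a median above the 8.3 of all coding genes in most of them. It was 9.27 for mitochondrial, 9.48 for zinc finger, 8.57 for ubiquitin ligase and 9.61 for cell cycle genes, but 7.76 for cytosolic ribosomal protein genes. The part of peak strength in these shares was not tested.

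Among blood genes the share with a WT-only promoter differed between lists, beside the 7.57% of all coding genes. These lists had weaker WT promoters than all coding genes, where the strongest peak of each gene had a median of 8.3. That median was 6.48 for stem cell, 6.35 for myeloid, 5.79 for lymphoid, 7.21 for megakaryocyte and 7.19 for erythroid genes. Weak peaks were more often WT-only, and the part of peak strength in these shares was not tested. Of 32 stem cell genes with a WT promoter peak, 3 had a WT-only one (9.38%), and in 2 of these another group was open in KO. Erg had 4.57 at its first group, with group 4 at 4.37 in WT and 6.42 in KO, and Mecom had 3.33 at group 6 of 7, with a pileup of 56 in WT and 60 in KO at group 2. On the KO side 5 of 33 stem cell genes (15.2%) had a KO-only promoter peak. Myeloid genes had 6 of 26 (23.1%). S100a8 and S100a9, the calprotectin subunits of neutrophils, had 4.98 and 3.91 with pileups of 11 and 10, and Ltf, a granule protein, had 4.56 and 9. Fcer1g, an Fc receptor chain, had 4.06 and 11. None of these 4 had a KO promoter peak. Cd33, a sialic acid receptor, had 4.1, and its other group had a pileup of 32 in WT and 58 in KO. Gfi1, a repressor needed for neutrophils, had 4 with a pileup of 16, and its other group had 14 in WT and 11 in KO. On the KO side 5 of 23 myeloid genes (21.7%) had a KO-only promoter peak. Of the granulocyte and macrophage markers 2 of 6 were open in WT and 0 in KO, and both, Ltf and S100a8, are among the myeloid genes counted here.

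In chemokine and interleukin genes, with their receptors, the counts of the 2 lists differed most among families with at least 20 genes open in WT. A WT-only promoter was found in 10 of 45 (22.2%) and a KO-only one in 3 of 39 (7.69%). The strongest WT peak of each gene had a median of 6.47, against 8.3 for all coding genes. Cxcl5, a neutrophil attractant, had 2 WT-only peaks with fold enrichments of 7.01 and 4.03, and Cxcl1, of like function, had 4.1 with a pileup of 8. Il10, an anti-inflammatory cytokine, had 6.51 with 16, and Ccl2, a monocyte attractant, had 5.39 with 11. Ccl3, a macrophage inflammatory protein, had 4.1, and Cxcr2, the neutrophil receptor of Cxcl1 and Cxcl5, had 4.17. For the 6 genes named here the KO list held no promoter peak. Il1r1 had 5.44 at its second group and an open first group, with 11 in WT and 11.4 in KO. Of the granulocyte and macrophage markers, 2 of 6 were open in WT, through weak peaks with pileups of 9 at Ltf and 11 at S100a8, and 0 in KO. The wider list of myeloid genes was more even, with 6 of 26 WT-only and 5 of 23 KO-only. The part of these markers in the chemokine and interleukin difference was not tested. Cxcl14 had 4.1 and Il7r 5.77, both without a KO promoter peak, and Il3ra, the lowest of all at 2.04, had its own group open in KO.

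Lymphoid genes had 4 of 22 (18.2%), with Il7r, the interleukin 7 receptor chain, at 5.77 with a pileup of 13, Cd22 at 5.47, Cd5 at 3.99 and Cd74, the MHC class II invariant chain, at 4.56 with a pileup of 29. None of the 4 had a KO promoter peak, and on the KO side 5 of 20 (25.0%) had a KO-only one. The summits of Il7r and Cd74 lay 34 bp and 174 bp upstream of the only group of each gene. That of Cd22 lay in a coding exon, at the last of 4 groups. That of Cd5 lay in an intron, 671 bp downstream of its second group. Megakaryocyte genes had 4 of 16 (25.0%), namely Itgb3 at 5.87, Alox12 at 4.17, F5 at 3.75 and Treml1 at 3.65, and only Itgb3 had another group open in KO. All these summits lay inside the gene. Those of Alox12, F5 and Treml1 were 815 bp, 629 bp and 728 bp downstream of the start, in a coding exon for Alox12 and in introns for F5 and Treml1. That of Itgb3 was at its second group, the start of a processed transcript, and its first group was open in both lists. On the KO side 3 of 17 megakaryocyte genes (17.6%), 2 of 15 erythroid genes (13.3%) and 3 of 16 stroma and endothelium genes (18.8%) had a KO-only promoter. Among 14 erythroid genes, Ank1 at 4.98 and Sptb at 3.59, both of the red cell membrane skeleton, had another group open in KO, and for Sptb a KO peak 677 bp away also kept its own group open. Among 17 stroma and endothelium genes, Cdh5, the endothelial cadherin, had 4.88 and Nes, an intermediate filament gene, had 4.1. The strongest WT peaks of these 17 genes had a median of 5.01. Of 31 Mediator subunit genes, 3 had a WT-only promoter (9.68%), and 0 of 29 had a KO-only one. Med24 had 5.01 at its first of 7 groups, with group 4 at 5.32 in WT and 7.68 in KO, whereas Med27 at 4.1 and Med25 at 3.07 had no KO promoter peak. Their pileups were 10, 8 and 13.

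**Figure D5:**
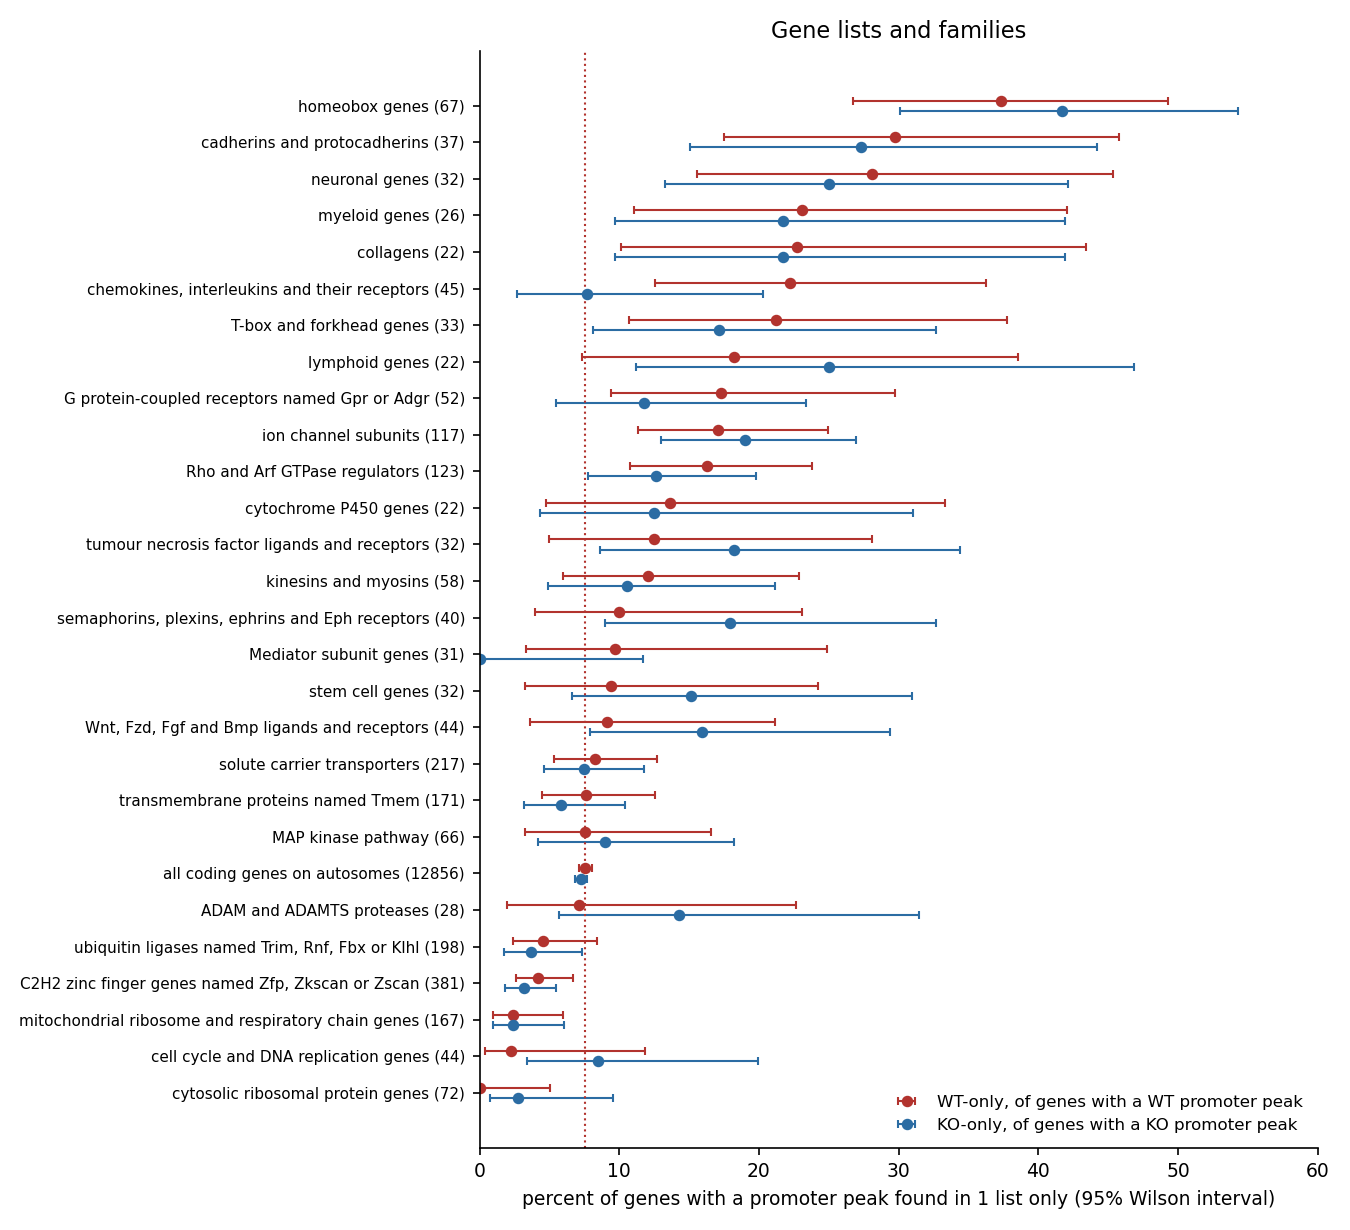
Percent of genes with a promoter peak found in 1 list only, for gene lists and families with at least 20 genes open in WT (number in brackets) and for all coding genes; red, WT-only of genes with a WT promoter peak, blue, KO-only of genes with a KO promoter peak, bars 95% Wilson intervals over genes, dotted line 7.57%. Homeobox genes stand highest in both colours, and the chemokine and interleukin family has 22.2% in red and 7.69% in blue.

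Across chromosomes the share of coding promoter peaks that were WT-only ran from 5.84% to 12.9%. The highest was on chromosome 14, with 63 of 489, where KO-only promoters made up 36 of 468 (7.69%). Chromosome 11 followed with 106 of 1027 (10.3%), against 72 of 987 (7.29%) in KO.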

How the data were processed

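The authors trimmed reads with Trim Galore, used Bowtie2 for alignment to mm10 and Picard for duplicates, and called peaks with MACS2 without a fragment model. Tool versions, and whether the replicates of a genotype were pooled, are not given in the sources used here. The deposited lists give a display score, the authors' fold enrichment, their −log10 p and −log10 q, and the summit offset, which is another kind of value, a position. The score was not used. Deposited summit files were identical to the summits of the lists (37919 WT, 37639 KO).

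Start sites were those of all transcripts of protein-coding genes in GENCODE M21, and a peak was assigned to the gene of its nearest start. Summit pileups were solved from fold enrichment and −log10 p under the caller's Poisson model, matching within 0.001 for 100.0% of WT and 99.99% of KO peaks. Read depth is unknown. Overlap meant at least 1 shared base. Shares have 95% Wilson intervals. Scripts were tested on simulated data. Python 3.11.15, pandas 2.3.3, scipy 1.17.1 and pysam 0.24.0 were used.

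The members, lists and named genes were chosen with earlier results of these data known, and no test was made of any of them. Named were the 20 most enriched peaks, the 5 highest of genes with another group open and the 5 highest of genes with no KO promoter peak, every peak at a listed gene, the 3 nearest on each side of the rule's limits, and up to 5 genes with peaks at different groups. Genes named for a family (homeobox, cadherin, ion channel, chemokine and mitochondrial genes), Mef2b, Arpp21 and Fbxl17, the families of ribosomal, mitochondrial, Sox and T-box or forkhead genes and the CTCF motif were chosen after their values were seen. Tcte3 would have been among the printed sequences and was replaced by the next promoter. Alternatives varied the distance to the start, the set of starts, the overlap rule, the −log10 q, the chromosomes, the chaining of starts and the meaning of open. Some cell type markers are not reported here.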

Additional observations from a re-analysis of the deposited data

How the results depend on the processing

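Of 56 values under other settings, 26 stayed within the counting interval of the reported value (for counts, within 1.5 times) and 30 moved. Counting only the outermost 5′ end of each gene left 633 peaks at 621 genes, and a −log10 q of at least 5 left 332 peaks at 330 genes. The share of WT coding promoter peaks without a KO overlap was 6.44% within 500 bp of a start, 10% within 2500 bp, 6.71% for starts of coding transcripts, 5.97% for outermost starts, 6.87% with no KO peak within 500 bp, 2.86% at the stricter q and 9.78% when sharing required a KO peak over the WT summit. The median enrichment was 4.44 within 500 bp of a start, 4.45 with no KO peak within 500 bp and 5.68 at the stricter q. Genes with another group open in KO made up 31% within 500 bp of a start, 38.6% within 2500 bp, 25.4% for coding transcripts, 13.4% for outermost starts, 30.2% when a KO peak had to cover a start and 31.2% when its summit had to lie within 500 bp. Genes with no KO promoter peak made up, in the same order, 62.5%, 49.1%, 64.8%, 75.8%, 65.1% and 62.9%, and 63.2% with no KO peak within 500 bp, 62.1% at the stricter q and 45.6% for the summit rule. The distance to a start and the set of starts were varied for the WT peaks alone. Groups open in KO were still sought at all starts in those settings. The median GC content was 57.8% in 400 bp. The cause of these shifts was not tested.

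No paired analysis was possible because only 1 WT list and 1 KO list were compared, and leaving out a replicate was not run for the same reason. The lists do not show whether a promoter absent from the KO list had reads below the calling threshold there, which limits what can be said of peaks with the lowest pileups.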
